A study of Mus musculus with 18 samples.

Results

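The receptors through which cells respond to bone morphogenetic proteins (BMPs) and transforming growth factor beta (TGF-β) were followed in cultured mouse pro-B cells that lacked the transcription factor EBF1 or PAX5. The set holds 6 named genes, Bmpr1a, Acvr1, Tgfbr1, Bmpr2, Tgfbr2 and Tgfbr3, of the 24072 genes in the RNA table, together with the 20 of 14377 EBF1- or PAX5-bound regions that the deposited tables annotate to one of them. The genes were selected on their RNA levels in these same libraries, so those levels are given as a description with no test. Pro-B cells are committed B lymphocyte precursors. The cells came from fetal livers of Ebf1-/-, Pax5-/- and wild-type mice on a C57BL6/J background. All 3 genotypes were expanded under the same conditions on OP9 cells, a mouse stromal line, with KIT ligand, FLT3 ligand and interleukin 7 at 10 ng/ml each. Each genotype has 3 RNA libraries and 3 ATAC libraries, the assay in which a transposase tags open chromatin. Nothing in the labels says that libraries of a genotype came from separate cultures or animals, so p-values here reflect how these libraries vary, which may be technical.

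Ligands of this family bring together type II and type I receptors, both of which are serine/threonine kinases. The type II receptor phosphorylates the type I receptor, which then phosphorylates SMAD proteins that enter the nucleus. TGF-β acts through TGFBR2 and TGFBR1 on SMAD2 and SMAD3, whereas BMPs act through type II receptors such as BMPR2 and type I receptors such as BMPR1A and ACVR1 on SMAD1, SMAD5 and SMAD9. TGFBR3, also called betaglycan, is a co-receptor without kinase activity that presents ligand. TGF-β is known to restrain the growth of B lymphocytes and their precursors. EBF1 commits progenitors to the B lineage, and PAX5, whose gene is among its targets, maintains that commitment.

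The RNA libraries held 27.3 to 89.1 M mapped reads and the ATAC libraries 15.3 to 38.6 M. Levels are reads over exons per 10 M mapped reads, as the authors scaled them. Log2 values of libraries correlated with r between 0.990 and 0.996 within a genotype and between 0.803 and 0.891 across genotypes. Pax5 had 8.53, 15.02 and 15.7 reads per 10 M in Ebf1-/- cells, 99.1, 98.6 and 129 in Pax5-/- cells and 1314, 1629 and 1619 in wild-type cells. Ebf1 kept 1345 to 1605 in Ebf1-/- cells, 1328 to 1661 in Pax5-/- cells and 3252 to 4454 in wild-type cells, and a count over all its exons does not check the deletion. The summed level of 10 pro-B markers was 9020.04 to 9279.9 in Ebf1-/- cells, 12513 to 16295 in Pax5-/- cells and 26699.6 to 28244 in wild-type cells. Xist was at 41026 to 47861 in the Ebf1-/- libraries and at most 42.8 in all others, so effects of sex and of the Ebf1 genotype cannot be told apart.

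Bmpr1a, a type I receptor for BMPs, was abundant in Pax5-/- cells and low in the other genotypes. It had 1.93, 2.93 and 3.10 in Ebf1-/- cells, 398, 587 and 563 in Pax5-/- cells and 3.37, 9.16 and 5.87 in wild-type cells. The 3 Pax5-/- libraries lay far above every other library, and the Ebf1-/- libraries all lay below the wild-type ones. The Pax5-/- mean of 516 ± 103 was 84.2 times the wild-type mean of 6.13 ± 2.91 (SD, n = 3 each). The reads behind these values were 33 in the 3 Ebf1-/- libraries together, 8269 in the Pax5-/- libraries and 75 in the wild-type libraries. Differences between genotypes are given below as log2 values less the median difference of all genes tested, which was 0.31 for Ebf1-/- over wild type, 0.28 for Pax5-/- over wild type and 0.05 for Ebf1-/- over Pax5-/-. On that scale Bmpr1a stood at 5.96 in Pax5-/- over wild-type cells, -1.20 in Ebf1-/- over wild-type cells and -7.19 in Ebf1-/- over Pax5-/- cells (SE 0.29 each). These differences are taken on log2(value + 1), which understates the change of genes with low levels. The authors' deposited table of changed transcripts lists Bmpr1a with a log2 fold change of 6.20 for Pax5-/- and -1.45 for Ebf1-/- over wild type.

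Acvr1, another type I receptor, showed another layout, with wild-type cells as the only genotype above 2.92. It had 0.275, 0.366 and 0.172 in Ebf1-/- cells, 0.855, 1.58 and 2.92 in Pax5-/- cells and 35.3, 48.3 and 44.1 in wild-type cells. Every library of both mutants lay below every wild-type library, and the Ebf1-/- libraries lay below the Pax5-/- ones. The Ebf1-/- libraries held 1 read each, 3 in all, against 541 in wild-type cells, a level 173-fold lower (95% counting interval 58.7 to 839, which covers counting error only). The Pax5-/- libraries held 3, 5 and 26 reads, 34 in all, a level 19.5-fold lower than in wild-type cells by reads (counting interval 13.8 to 28.4). By means of libraries, their 1.79 ± 1.05 was 23.8-fold below the wild-type 42.6 ± 6.60. Between the mutants, the level in Ebf1-/- cells was 8.85-fold lower than in Pax5-/- cells by reads (counting interval 2.78 to 45.04) and 6.59-fold lower by means. In the authors' deposited table, 3 Acvr1 transcripts carry log2 fold changes of -7.57 to -7.53 for Ebf1-/- and -4.63 to -4.59 for Pax5-/- over wild type.

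Tgfbr1, the type I receptor for TGF-β, was graded across the genotypes. It had 1418, 1168 and 1159.8 in Ebf1-/- cells, 866, 891 and 818 in Pax5-/- cells and 409, 494 and 517 in wild-type cells. The 3 groups did not overlap, with Ebf1-/- cells highest and wild-type cells lowest. The means of 1249 ± 147 in Ebf1-/- cells and 858 ± 37.2 in Pax5-/- cells were 2.64 and 1.81 times the wild-type mean of 473 ± 56.6. Less the median of all genes, the log2 difference was 1.09 for Ebf1-/- over wild type, 0.58 for Pax5-/- over wild type and 0.49 for Ebf1-/- over Pax5-/- (SE 0.14 each). The authors' deposited table lists the change for Ebf1-/- over wild type, at 1.10, and does not list one for Pax5-/-.

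**Figure D1:**
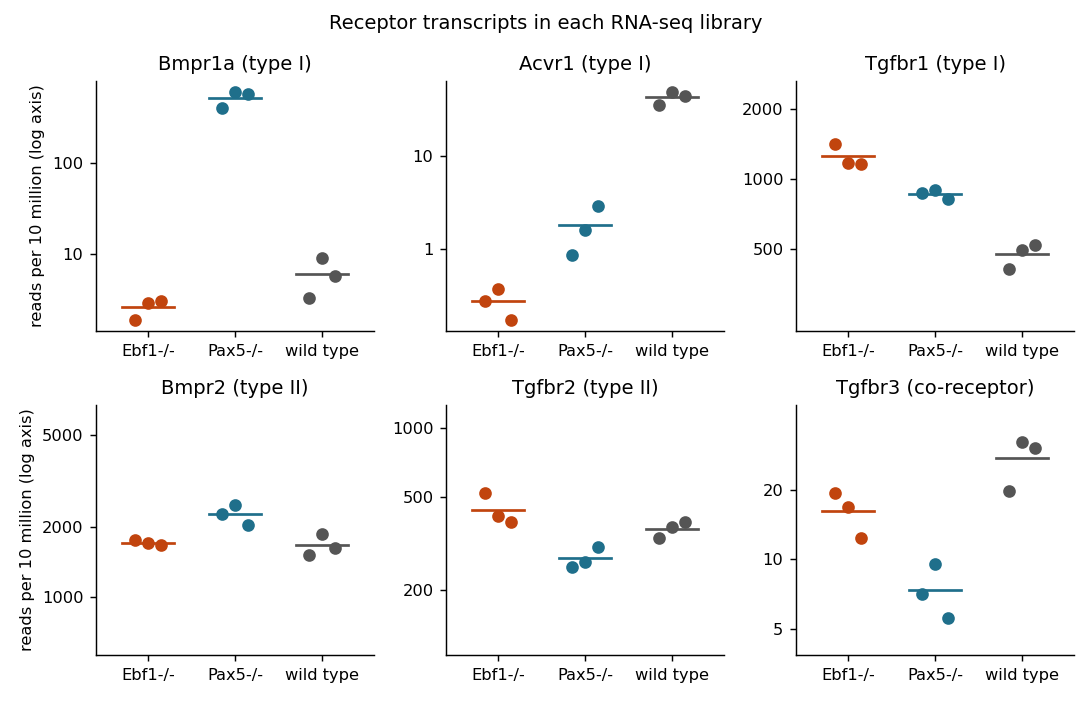
RNA level of the 6 receptor genes in each of the 9 libraries, in reads per 10 M mapped reads on a log axis, with points for libraries and a bar for the mean of each genotype. Bmpr1a is high in the 3 Pax5-/- libraries (398 to 587), Acvr1 in the 3 wild-type libraries (35.3 to 48.3), and Bmpr2 lies between 1519.6 and 2499 in all 9.

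Bmpr2, the type II receptor of the BMP branch, stood between 1519.6 and 2499 in all 9 libraries. It had 1769, 1701 and 1684 in Ebf1-/- cells, 2276, 2499 and 2042 in Pax5-/- cells and 1519.6, 1866 and 1623 in wild-type cells. The Ebf1-/- and wild-type libraries overlapped, while all Pax5-/- libraries lay above both, with a mean of 2273 ± 229 beside 1718 ± 45.3 in Ebf1-/- cells and 1669.5 ± 178 in wild-type cells. Less the median of all genes, the log2 difference was -0.26 for Ebf1-/- over wild type, 0.17 for Pax5-/- over wild type and -0.45 for Ebf1-/- over Pax5-/- (SE 0.13 each).

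Tgfbr2, the type II receptor for TGF-β, had 521, 416 and 389.9 in Ebf1-/- cells, 252, 264 and 306 in Pax5-/- cells and 333, 372 and 391 in wild-type cells. The Pax5-/- libraries lay below all others, and the Ebf1-/- and wild-type libraries overlapped. The means were 442 ± 69.7 in Ebf1-/- cells, 274 ± 28.5 in Pax5-/- cells and 365 ± 29.8 in wild-type cells. Less the median of all genes, the log2 difference was -0.04 for Ebf1-/- over wild type, -0.70 for Pax5-/- over wild type and 0.64 for Ebf1-/- over Pax5-/- (SE 0.15 each). Neither Bmpr2 nor Tgfbr2 is in the authors' deposited table of changed transcripts, in which the smallest log2 fold change is about 1 in size.

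Tgfbr3, the betaglycan co-receptor, was low in every genotype and lowest in Pax5-/- cells. It had 19.2, 16.9 and 12.4 in Ebf1-/- cells, 7.12, 9.51 and 5.61 in Pax5-/- cells and 19.6, 32.1 and 30.1 in wild-type cells. The 3 groups did not overlap, although the highest Ebf1-/- library and the lowest wild-type library were almost level. The means of 16.2 ± 3.47 in Ebf1-/- cells and 7.41 ± 1.96 in Pax5-/- cells were 1.69-fold and 3.68-fold lower than the wild-type mean of 27.3 ± 6.69. Less the median of all genes, the log2 difference was -1.02 for Ebf1-/- over wild type, -2.02 for Pax5-/- over wild type and 0.99 for Ebf1-/- over Pax5-/- (SE 0.26 each). The authors' deposited table gives -1.06 and -2.19 for the first and second of these.

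Libraries of the genotypes compared overlapped for Bmpr2 and Tgfbr2 in Ebf1-/- against wild-type cells and in no other pairing of the 6 receptors. Over all genes tested, libraries did not overlap for 64.4% in Ebf1-/- over wild type (48.3% higher, 16.1% lower), 54% in Pax5-/- over wild type (40.3% higher, 13.7% lower) and 41.5% in Ebf1-/- over Pax5-/- (24.5% higher, 17% lower). Of the same genes, 55.3% passed the test for Ebf1-/- over wild type (40.8% higher, 14.4% lower), 46.5% for Pax5-/- over wild type (34.7% higher, 11.9% lower) and 30.9% for Ebf1-/- over Pax5-/- (17.5% higher, 13.3% lower), so a difference between these genotypes is common in this table. The test was limma's moderated test at a Benjamini-Hochberg adjusted p under 0.05. TMM scaling, which centres the genes, turned 5240 higher and 1855 lower genes for Ebf1-/- over wild type into 3852 and 3609, 4451 and 1525 for Pax5-/- over wild type into 3324 and 3075, and 2250 and 1712 for Ebf1-/- over Pax5-/- into 2629 and 2521. Both comparisons with wild type share the wild-type libraries. In bulk RNA, fewer cells of a type and less RNA per cell cannot be told apart.

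Markers of other cells were summed beside the receptors. The 14 markers of OP9 stroma and fibroblasts summed to 395 to 469 reads per 10 M in Ebf1-/- cells, 82.0 to 248 in Pax5-/- cells and 144 to 334 in wild-type cells, with Dcn at 0 in all 9 libraries. Pdgfrb alone had 335 to 448 in Ebf1-/- cells, 23.1 to 29.9 in Pax5-/- cells and 0 to 1.41 in wild-type cells. The 13 others, mainly Fn1 and Acta2, summed to 20.9 to 119 in Ebf1-/- cells, 52.1 to 225 in Pax5-/- cells and 144 to 333 in wild-type cells. Without Pdgfrb, the library numbered 2 had the highest stromal sum of each genotype, and in Pax5-/- and wild-type cells also the highest Bmpr1a. Without the libraries numbered 2, Bmpr1a was at 398 and 563 in Pax5-/- cells, against 3.37 and 5.87 in wild-type cells. Myeloid markers summed to 332 to 430.1 in Ebf1-/- cells, 68.5 to 95.2 in Pax5-/- cells and 6.69 to 16.5 in wild-type cells. Mpo (131 to 219) and Itgam (155 to 204) made up most of the Ebf1-/- sum. Lyz2 was lower there, at 1.47 to 2.24 against 3.33 to 5.61 in wild-type cells. Csf1r, Elane and Cd14 were at most 4.31 in any library. T and NK markers summed to 839 to 1015, 48.8 to 90.8 and 4.12 to 6.34 in the same order of genotypes. Il2rb (507 to 692), Nkg7 (132 to 145), Tcf7 (110 to 122) and Gata3 (63.0 to 68.5) made up most of the Ebf1-/- sum. Cd3e and Cd3d were at most 4.95 in any library. Endothelial markers summed to 324 to 343 in Ebf1-/- cells, 106 to 113 in Pax5-/- cells and 150.05 to 172 in wild-type cells, of which Pecam1 alone made up 322 to 343 in Ebf1-/- cells, 106 to 113 in Pax5-/- cells and 147 to 169 in wild-type cells. Hepatocyte markers summed to at most 1.80 in any library. Their part in the receptor levels was not tested. Exons of Bmpr1a overlap those of the antisense gene Gm17110, and exons of Tgfbr3 overlap those of Gm43422 on its own strand. The longest overlap of a single pair of exons is 290 bases for Bmpr1a and 297 for Tgfbr3. The sources used here do not say whether counting used strand, so reads over shared bases cannot be assigned.

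Because transcripts differ in length, levels of different receptors were compared as reads per 10 M and kilobase of exon. In Ebf1-/- cells the order was Tgfbr1 (218), Bmpr2 (155), Tgfbr2 (92.6), Tgfbr3 (2.68), Bmpr1a (0.485) and Acvr1 (0.0825), and no neighbours in it overlapped. In Pax5-/- cells it was Bmpr2 (205), Tgfbr1 (149.6), Bmpr1a (94.4), Tgfbr2 (57.3), Tgfbr3 (1.23) and Acvr1 (0.544), again with no overlap. In wild-type cells it was Bmpr2 (151), Tgfbr1 (82.5), Tgfbr2 (76.5), Acvr1 (12.96), Tgfbr3 (4.52) and Bmpr1a (1.12), where only Tgfbr1 and Tgfbr2 did not differ beyond their spread. Bmpr1a thus stood in the third place in Pax5-/- cells, at a level above 63.8% of the genes tested, against 3.97% in Ebf1-/- cells and 9.65% in wild-type cells.

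Shares of type I receptor RNA were taken over the 7 type I receptors of the family in the table, that is the 3 of the set with Acvr1b, Acvr1c, Acvrl1 and Bmpr1b. Of their summed per-length level, Tgfbr1 made up 86.4 to 89.3% in the Ebf1-/- libraries, 52.8 to 62.8% in the Pax5-/- libraries and 78.9 to 82.2% in the wild-type libraries. Bmpr1a made up 0.127 to 0.243% in Ebf1-/- cells, 30.3 to 38.2% in Pax5-/- cells and 0.698 to 1.53% in wild-type cells. Acvr1 made up 0.0224 to 0.0479% in Ebf1-/- cells, 0.108 to 0.329% in Pax5-/- cells and 12.2 to 13.5% in wild-type cells. Acvr1b, an activin receptor outside the set, made up 10.5 to 13.2% in Ebf1-/- cells, 6.75 to 8.70% in Pax5-/- cells and 4.52 to 6.12% in wild-type cells. Acvr1c, Acvrl1 and Bmpr1b were at most 1.10 reads per 10 M in any library. After Tgfbr1, the largest share was that of Acvr1b in Ebf1-/- cells, of Bmpr1a in Pax5-/- cells and of Acvr1 in wild-type cells. The ratio of Tgfbr1 to Tgfbr2 per length was 2.26 to 2.48 in Ebf1-/- cells, 2.23 to 2.87 in Pax5-/- cells and 1.02 to 1.11 in wild-type cells.

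**Figure D2:**
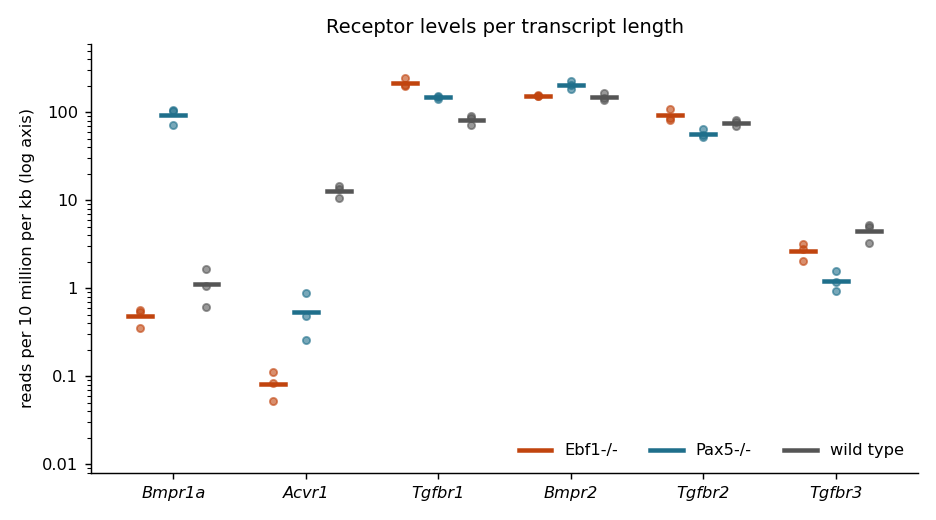
Level of each receptor per kilobase of exon (reads per 10 M mapped reads and kilobase, log axis) in Ebf1-/-, Pax5-/- and wild-type cells, with points for libraries and a bar for the mean. Bmpr1a takes the third place in Pax5-/- cells (94.4) and the last in wild-type cells (1.12).

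The genes whose log2 levels followed each receptor most closely over the 9 libraries were found among 9425 genes by Pearson's r, given as a description of libraries that share genotype and scaling. Dpysl5 (r = 0.997) and Ggh, which encodes gamma-glutamyl hydrolase (r = 0.996), followed Bmpr1a. Dpysl5 had 0.55, 1.10 and 0.862 in Ebf1-/- cells, 75.5, 73.8 and 76.2 in Pax5-/- cells and 1.12, 4.23 and 1.74 in wild-type cells, so that it too was high in Pax5-/- cells alone. Ehd2 and C1galt1 (r = 0.998 each) followed Acvr1, and Ehd2 had 0.825, 1.10 and 0.69 in Ebf1-/- cells, 2.56, 2.54 and 5.28 in Pax5-/- cells and 112, 182 and 159 in wild-type cells. Fam179b (r = 0.999) and Bend4 (r = 0.995) followed Tgfbr1, with Bend4 at 1636, 1137 and 1161 in Ebf1-/- cells, 619.5, 639.8 and 658 in Pax5-/- cells and 103, 166 and 169 in wild-type cells. Zranb1 (r = 0.988) and Ddias (r = 0.975) followed Tgfbr2, Dnajb4 (r = 0.933) and Gimap4 (r = 0.928) followed Bmpr2, and Wsb1 (r = 0.969) and Zc3h12c (r = 0.964) followed Tgfbr3.

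The regions bound by EBF1 or PAX5 come from earlier chromatin immunoprecipitation data that the authors re-analysed. The tables sort them into 7815 regions bound by EBF1 only, 5033 by PAX5 only and 1529 by both, and give each the nearest gene start. Distances upstream or downstream are counted from the gene start, so a region downstream can lie within the gene. Of the 20 regions annotated to the receptors, 14 belong to Tgfbr2, 4 to Tgfbr3 and 2 to Acvr1. None is annotated to Bmpr1a, Tgfbr1 or Bmpr2. The 14 of Tgfbr2 are 5 bound by EBF1 only, 7 by PAX5 only and 2 by both, and 10 of them lie upstream of its start on chromosome 9, up to 240.6 kb away. The receptors are at chr14:34411068-34502546 (Bmpr1a, minus strand), chr2:58446438-58566828 (Acvr1, minus strand), chr4:47353222-47414924 (Tgfbr1, plus strand), chr1:59764279-59878081 (Bmpr2, plus strand), chr9:116087695-116175363 (Tgfbr2, minus strand) and chr5:107106570-107289595 (Tgfbr3, minus strand) of mm10, which is GRCm38. The nearest bound region to Bmpr1a was 171 kb upstream of its start and to Bmpr2 229 kb upstream, with another gene's name for each, and the nearest to Tgfbr1 was 10.4 kb upstream with no gene name. That region, bound by EBF1 only, had 3.89, 3.93 and 7.36 ATAC tags per 10 M in Ebf1-/- cells, 9.52, 5.30 and 6.95 in Pax5-/- cells and 12.4, 8.26 and 10.4 in wild-type cells, lower in Ebf1-/- than in wild-type cells with the authors' scaling (limma's adjusted p = 0.0056) and not with TMM (0.69). The 12 regions called in at least 1 comparison under all 5 methods tried (limma with 3 scalings, edgeR and DESeq2) are printed from the GRCm38 sequence, plus strand, in lower case, except the one 163 kb upstream of Tgfbr2, which at 352 bases is longer than the 300 bases printed at most. Capitals mark the EBF1 core CCCNNGGGA and the PAX5 core GCNTGAC, both searched on both strands, with overlapping matches kept.
The Acvr1 pair lies in intron 2 of 12 and had the largest falls in ATAC signal among the 20 regions in both mutants.
Acvr1, EBF1-only, chr2:58528361-58528631: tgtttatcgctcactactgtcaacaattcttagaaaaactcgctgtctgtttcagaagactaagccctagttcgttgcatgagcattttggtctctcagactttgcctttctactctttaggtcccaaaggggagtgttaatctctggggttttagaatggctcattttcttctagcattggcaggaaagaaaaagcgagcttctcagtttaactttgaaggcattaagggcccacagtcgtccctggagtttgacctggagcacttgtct
Acvr1, PAX5-only, chr2:58527999-58528247: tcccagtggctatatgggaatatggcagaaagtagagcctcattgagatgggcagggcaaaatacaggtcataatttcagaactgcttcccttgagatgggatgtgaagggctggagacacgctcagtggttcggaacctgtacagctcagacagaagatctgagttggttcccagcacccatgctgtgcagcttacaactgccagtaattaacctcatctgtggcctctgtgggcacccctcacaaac
These Tgfbr2 regions, all intergenic, differed between the mutants or fell in at least 1 of them under every method tried.
Tgfbr2 240.6 kb upstream, PAX5-only, chr9:116415872-116416120: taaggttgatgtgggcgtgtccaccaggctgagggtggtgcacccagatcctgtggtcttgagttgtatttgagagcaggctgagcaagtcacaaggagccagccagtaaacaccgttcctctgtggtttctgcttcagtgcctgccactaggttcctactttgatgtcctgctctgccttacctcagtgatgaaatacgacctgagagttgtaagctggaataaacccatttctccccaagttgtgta
Tgfbr2 166.8 kb upstream, PAX5-only, chr9:116342070-116342318: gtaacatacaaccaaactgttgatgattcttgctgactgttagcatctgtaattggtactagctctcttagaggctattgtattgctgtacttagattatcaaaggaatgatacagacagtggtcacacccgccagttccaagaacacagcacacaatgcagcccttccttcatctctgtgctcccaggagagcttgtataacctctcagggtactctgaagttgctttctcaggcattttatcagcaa
Tgfbr2 149 kb upstream, EBF1-only, chr9:116324384-116324654: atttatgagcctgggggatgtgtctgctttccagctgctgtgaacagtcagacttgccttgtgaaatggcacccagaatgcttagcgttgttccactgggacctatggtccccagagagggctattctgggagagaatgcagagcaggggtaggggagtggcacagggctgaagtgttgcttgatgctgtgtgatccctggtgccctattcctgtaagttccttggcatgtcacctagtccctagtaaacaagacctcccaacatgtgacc
Tgfbr2 43.7 kb upstream, shared, chr9:116218907-116219200: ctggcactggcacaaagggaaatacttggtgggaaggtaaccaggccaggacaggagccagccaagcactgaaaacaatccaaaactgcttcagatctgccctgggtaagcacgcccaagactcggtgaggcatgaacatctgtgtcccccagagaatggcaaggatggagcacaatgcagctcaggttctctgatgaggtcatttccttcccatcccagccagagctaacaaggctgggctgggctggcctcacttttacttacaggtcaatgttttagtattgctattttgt
Tgfbr2 41.6 kb upstream, PAX5-only, chr9:116216853-116217101: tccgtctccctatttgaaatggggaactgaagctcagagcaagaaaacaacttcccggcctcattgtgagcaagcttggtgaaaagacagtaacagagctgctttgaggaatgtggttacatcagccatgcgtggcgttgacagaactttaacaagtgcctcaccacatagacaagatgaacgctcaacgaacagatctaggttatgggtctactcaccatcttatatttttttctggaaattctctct
Tgfbr2 23.4 kb upstream, PAX5-only, chr9:116198628-116198876: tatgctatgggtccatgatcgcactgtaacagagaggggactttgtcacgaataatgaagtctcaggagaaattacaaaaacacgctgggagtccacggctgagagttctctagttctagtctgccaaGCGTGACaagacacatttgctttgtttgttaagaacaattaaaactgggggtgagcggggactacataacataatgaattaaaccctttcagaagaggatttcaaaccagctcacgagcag
Tgfbr2 97.9 kb downstream, EBF1-only, chr9:116077351-116077621: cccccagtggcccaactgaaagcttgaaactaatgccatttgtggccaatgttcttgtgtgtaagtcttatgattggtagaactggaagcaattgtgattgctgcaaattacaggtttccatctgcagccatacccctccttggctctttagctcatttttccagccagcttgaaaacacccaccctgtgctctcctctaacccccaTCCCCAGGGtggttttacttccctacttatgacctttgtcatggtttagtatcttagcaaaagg
These Tgfbr3 regions lie upstream of the gene and in intron 5 of 16.
Tgfbr3 14.1 kb upstream, shared, chr5:107303570-107303842: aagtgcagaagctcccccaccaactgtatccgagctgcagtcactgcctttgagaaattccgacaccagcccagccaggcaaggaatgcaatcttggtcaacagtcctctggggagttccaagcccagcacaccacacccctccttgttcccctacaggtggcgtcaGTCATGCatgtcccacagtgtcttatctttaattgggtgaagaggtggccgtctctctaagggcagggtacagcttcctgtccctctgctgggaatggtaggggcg
Tgfbr3 intron, EBF1-only, chr5:107151638-107151908: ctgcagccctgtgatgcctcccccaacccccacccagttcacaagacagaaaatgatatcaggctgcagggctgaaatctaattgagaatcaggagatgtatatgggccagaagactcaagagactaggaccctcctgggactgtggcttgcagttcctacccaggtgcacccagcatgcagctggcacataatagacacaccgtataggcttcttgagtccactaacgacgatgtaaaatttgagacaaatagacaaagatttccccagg

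Among all regions scanned, the EBF1 core was present in 52.5% of 7810 EBF1-only regions (median length 271 bases), 4.63% of 5033 PAX5-only regions (249 bases) and 38.2% of 1529 shared regions (309 bases). The PAX5 core was present in 9.32%, 21.2% and 17.8% of the same classes. Of the regions printed, the EBF1 core is in that 97.9 kb downstream of the Tgfbr2 start, on the minus strand. The PAX5 core is in that 23.4 kb upstream of Tgfbr2, on the plus strand, and in that 14.1 kb upstream of Tgfbr3, on the minus strand. A match is a description of the letters and not a binding site.

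ATAC signal fell at the Acvr1 intron in both mutants. In tags per 10 M, the EBF1-only region had 1.95, 0 and 1.92 in Ebf1-/- cells, 1.06, 1.06 and 0 in Pax5-/- cells and 31.4, 19.4 and 21.8 in wild-type cells. The PAX5-only region beside it had 1.56, 1.51 and 1.60 in Ebf1-/- cells, 1.06, 1.06 and 1.30 in Pax5-/- cells and 37.9, 22.2 and 26.9 in wild-type cells. At both regions every mutant library was at or below 1.95 and every wild-type library at or above 19.4. The median log2 difference over all regions tested was -0.78 for Ebf1-/- over wild type, -0.75 for Pax5-/- over wild type and -0.02 for Ebf1-/- over Pax5-/-, and differences are given less that median. The SE and adjusted p-values belong to the difference before the median was taken off. At the PAX5-only region this difference was -2.74 ± 0.33 for Ebf1-/- and -3.03 ± 0.33 for Pax5-/- over wild type (± SE, limma's adjusted p = 2.2e-16 and 1.5e-17 over 14365 regions). At the EBF1-only region it was -2.81 ± 0.37 for Ebf1-/- and -3.18 ± 0.37 for Pax5-/- (limma's adjusted p = 2.3e-14 and 7.9e-16). The mutants did not pass the test against each other at either region (limma's adjusted p = 0.58 and 0.64), with a difference of 0.36 ± 0.37 at the EBF1-only and 0.28 ± 0.33 at the PAX5-only region.

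The Tgfbr2 regions did not move together. The region 149 kb upstream, bound by EBF1 only, had 2.34, 0.91 and 1.60 in Ebf1-/- cells, 16.9, 13.8 and 9.12 in Pax5-/- cells and 27.4, 17.9 and 23.8 in wild-type cells. Its Ebf1-/- libraries lay far below both other genotypes, and its Pax5-/- libraries below the wild-type ones without overlap. The difference was -2.44 ± 0.29 for Ebf1-/- over wild type (limma's adjusted p = 4.2e-17) and -2.42 ± 0.29 for Ebf1-/- over Pax5-/- (adjusted p = 6.5e-11). For Pax5-/- over wild type it was -0.03 ± 0.29, or -0.77 before the median was taken off. The region was called lower there with the authors' scaling (limma's adjusted p = 0.02). It was not called with TMM (0.77) or without Pax5-/- library 3 (0.16), wild-type library 1 (0.089) or wild-type library 3 (0.065).

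The shared region 43.7 kb upstream had 7.01, 7.56 and 8.64 in Ebf1-/- cells, 21.5, 13.5 and 10.4 in Pax5-/- cells and 65.3, 39.6 and 60.6 in wild-type cells. The 3 genotypes did not overlap, with Ebf1-/- cells lowest and wild-type cells highest. The difference was -1.88 ± 0.27 for Ebf1-/- and -1.08 ± 0.27 for Pax5-/- over wild type (limma's adjusted p = 6.4e-15 and 9.7e-09). Between the mutants it was -0.81 ± 0.27 for Ebf1-/- over Pax5-/- (limma's adjusted p = 0.016), a call lost without Pax5-/- library 1 (0.17), Ebf1-/- library 1 (0.067) or Ebf1-/- library 2 (0.061) and without the 3 libraries numbered 2 (0.057).

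The PAX5-only region somewhat nearer to the gene, 41.6 kb upstream, leaned the other way between the mutants. It had 6.23, 7.56 and 11.5 in Ebf1-/- cells, 2.47, 6.36 and 3.91 in Pax5-/- cells and 47.7, 30.5 and 41.4 in wild-type cells. The mutants overlapped, and all their libraries lay below the wild-type ones. The difference was -1.35 ± 0.28 for Ebf1-/- and -2.26 ± 0.28 for Pax5-/- over wild type (limma's adjusted p = 2.5e-10 and 4.9e-16). Between the mutants it was 0.90 ± 0.28 for Ebf1-/- over Pax5-/- (limma's adjusted p = 0.016), a call lost without Ebf1-/- library 3 (0.17) or Pax5-/- library 1 (0.15) and with a pseudocount of 5 (0.060).

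Further upstream regions of Tgfbr2 lost signal in the mutants. The PAX5-only region 166.8 kb upstream had 2.34, 1.21 and 0.96 in Ebf1-/- cells, 1.76, 1.59 and 1.74 in Pax5-/- cells and 13.7, 10.5 and 10.4 in wild-type cells, and the difference was -1.57 ± 0.35 for Ebf1-/- and -1.46 ± 0.35 for Pax5-/- over wild type (limma's adjusted p = 1.0e-08 and 8.8e-08). The PAX5-only region 23.4 kb upstream had 0, 0.91 and 0.64 in Ebf1-/- cells, 0.71, 1.33 and 3.04 in Pax5-/- cells and 7.19, 7.69 and 7.51 in wild-type cells, lower in every mutant library than in every wild-type library. Its difference was -1.75 ± 0.38 for Ebf1-/- and -0.999 ± 0.38 for Pax5-/- over wild type (limma's adjusted p = 1.3e-08 and 6.4e-05, the second not called under all 5 methods tried). The shared region 163 kb upstream had the highest signal of all 20, with 29.98, 38.1 and 43.2 in Ebf1-/- cells, 28.2, 22.5 and 22.1 in Pax5-/- cells and 99.95, 50.4 and 73.8 in wild-type cells. It fell in Pax5-/- cells under all 5 methods tried, with a difference of -0.79 ± 0.27 (limma's adjusted p = 1.2e-06). Its fall in Ebf1-/- cells was -0.17 ± 0.27, or -0.95 before the median was taken off. That fall was called with the authors' scaling (limma's adjusted p = 0.0019) and not with TMM (0.79).

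The EBF1-only region 97.9 kb downstream of the Tgfbr2 start had more signal in Ebf1-/- than in Pax5-/- cells. It had 12.8, 9.98 and 17.6 in Ebf1-/- cells, 6.70, 3.71 and 4.78 in Pax5-/- cells and 11.1, 12.5 and 8.80 in wild-type cells. The Ebf1-/- libraries lay above all Pax5-/- libraries and overlapped the wild-type ones, and the difference over Pax5-/- was 1.27 ± 0.29 (limma's adjusted p = 4.3e-04). Over wild type it was 1.05 ± 0.29, or 0.27 before the median was taken off. The region was not called there with the authors' scaling (limma's adjusted p = 0.44) and was called higher with TMM (3.9e-04). The PAX5-only region 209 kb upstream, with 21.03, 27.5 and 30.7 in Ebf1-/- cells, 21.2, 16.2 and 16.9 in Pax5-/- cells and 40.5, 14.8 and 28.7 in wild-type cells, overlapped in all genotypes, and was likewise not called with the authors' scaling (adjusted p = 0.98) and called higher in Ebf1-/- cells with TMM (3.2e-04). Its mutants did not pass the test against each other (0.54 ± 0.27, limma's adjusted p = 0.18). The region at the Tgfbr2 promoter, 0.5 kb from the start and bound by PAX5 only, had 7.40, 8.77 and 13.4 in Ebf1-/- cells, 9.17, 4.77 and 3.48 in Pax5-/- cells and 10.4, 12.2 and 17.1 in wild-type cells. It was called lower in Pax5-/- cells with the authors' scaling (limma's adjusted p = 7.4e-04) and not with TMM (0.42), and it was not called in Ebf1-/- over wild-type cells (adjusted p = 0.25). Between the mutants, which overlapped there, the difference of 0.75 ± 0.29 for Ebf1-/- over Pax5-/- did not pass with the authors' scaling (limma's adjusted p = 0.066) and passed with TMM (0.041).

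At Tgfbr3, the EBF1-only region in intron 5 fell in both mutants. It had 0.78, 0.61 and 1.60 in Ebf1-/- cells, 1.41, 2.65 and 1.30 in Pax5-/- cells and 10.4, 9.12 and 10.4 in wild-type cells, with every mutant library below every wild-type library. The difference was -1.71 ± 0.36 for Ebf1-/- and -1.26 ± 0.36 for Pax5-/- over wild type (limma's adjusted p = 4.7e-09 and 1.6e-06). The shared region 14.1 kb upstream had 1.17, 2.12 and 2.24 in Ebf1-/- cells, 2.12, 1.06 and 1.30 in Pax5-/- cells and 8.49, 13.4 and 5.96 in wild-type cells. Its difference was -1.03 ± 0.36 for Ebf1-/- and -1.26 ± 0.36 for Pax5-/- over wild type (limma's adjusted p = 1.0e-05 and 1.8e-06), and the fall in Pax5-/- cells was called under all 5 methods, that in Ebf1-/- cells not.

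The other called regions had low signal or calls that depended on the scaling or on single libraries. The PAX5-only region 240.6 kb upstream of Tgfbr2 had 2.73, 6.05 and 3.52 in Ebf1-/- cells, 0.35, 1.59 and 0.87 in Pax5-/- cells and 4.57, 4.56 and 3.88 in wild-type cells, and was higher in Ebf1-/- than in Pax5-/- cells by 1.42 ± 0.37 (limma's adjusted p = 0.0028). Its fall in Pax5-/- over wild-type cells (adjusted p = 3.3e-04 by limma) was not called with TMM (0.064). That 191 kb upstream had 31.1, 33.9 and 35.2 in Ebf1-/- cells, 21.2, 13.8 and 18.7 in Pax5-/- cells and 50.3, 24.2 and 43.2 in wild-type cells, with all Ebf1-/- libraries above all Pax5-/- ones (0.91 ± 0.27, limma's adjusted p = 0.0099, lost without Ebf1-/- library 3 at 0.052 or Pax5-/- library 2 at 0.11). Its fall in Pax5-/- over wild-type cells (adjusted p = 5.7e-04 by limma) was not called with TMM (0.58). In Ebf1-/- over wild-type cells the same region was not called with the authors' scaling (limma's adjusted p = 0.63) or quantile scaling (0.082). It was called higher there with TMM (0.0014), edgeR (4.8e-04) and DESeq2 (0.0013). In intron 1 of Tgfbr2, the EBF1-only regions 1.7 and 31.5 kb from the start were at most 3.03 in Ebf1-/- cells, 4.51 in Pax5-/- cells and 8.49 in wild-type cells. These 2 regions hold the EBF1 core and were called lower in both mutants with the authors' scaling, a call that TMM kept for the region 31.5 kb from the start in Ebf1-/- cells (0.017) and otherwise ended. The EBF1-only regions of Tgfbr3 8.0 and 112.7 kb from its start were at most 2.34 in Ebf1-/- cells, 2.17 in Pax5-/- cells and 7.19 in wild-type cells, and none of their calls held with TMM. At these 4 low regions, leaving out single libraries of the genotypes compared also ended calls, with adjusted p by limma between 0.055 and 0.22 at those libraries.

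**Figure D3:**
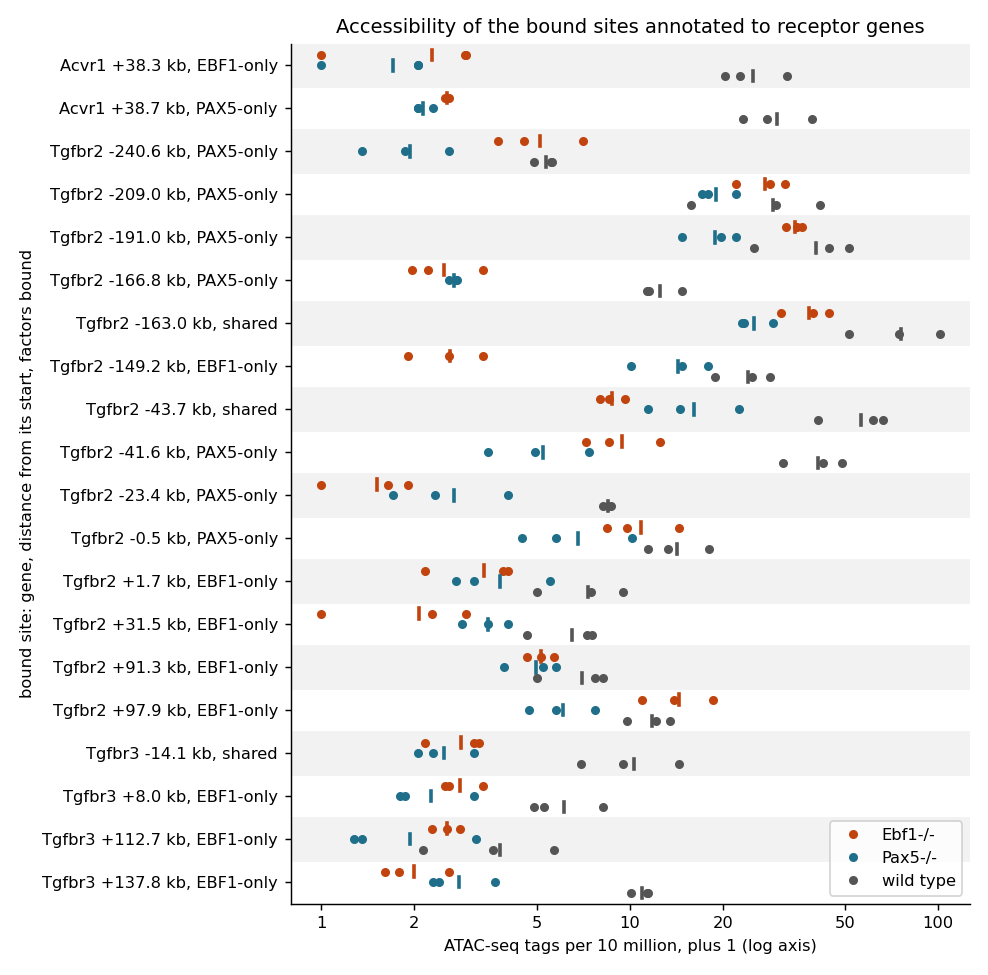
ATAC signal at the 20 bound regions annotated to Acvr1, Tgfbr2 and Tgfbr3, in tags per 10 M plus 1 on a log axis, with points for libraries and a tick for the mean of Ebf1-/-, Pax5-/- and wild-type cells. Both Acvr1 regions are at or below 1.95 in every mutant library and at or above 19.4 in every wild-type library, while the Tgfbr2 regions differ from one another.

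Of the 20 regions, 13 were called lower and 0 higher in Ebf1-/- over wild-type cells, where 51.1% of all regions tested were called lower and 3.28% higher. In Pax5-/- over wild-type cells, 18 were called lower and 0 higher, beside 51.5% and 2.11% of all regions. Between the mutants, 4 were higher and 2 lower in Ebf1-/- cells, beside 9.06% and 12.6% of all regions, and all 6 belong to Tgfbr2. With TMM scaling the counts became 10 lower and 3 higher for Ebf1-/- over wild type, 9 lower and 0 higher for Pax5-/- over wild type, and 2 lower and 6 higher for Ebf1-/- over Pax5-/-. Of all 14365 regions, TMM called 4260 lower and 2927 higher, 3046 lower and 1951 higher, and 2220 lower and 1857 higher in the same comparisons. Under all 5 methods (limma with the authors', TMM or quantile scaling, edgeR and DESeq2), 8 regions were lower in Ebf1-/- and 8 in Pax5-/- over wild type, beside 20.7% and 17.2% of all regions. Both sets hold the Acvr1 pair, the Tgfbr2 regions 166.8, 43.7 and 41.6 kb upstream and the Tgfbr3 region in intron 5.

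The wider pathway was described with 100 further gene symbols in lists by role, chosen with earlier results of these data known. Of these, 99 were measured (all but Lrrc33) and 54 were tested. In Ebf1-/- over wild-type cells 29 rose and 7 fell (53.7% and 12.96%), beside 40.8% and 14.4% of all genes. In Pax5-/- over wild-type cells 22 rose and 7 fell, beside 34.7% and 11.9%. In Ebf1-/- over Pax5-/- cells 21 rose and 8 fell, beside 17.5% and 13.3%. With TMM scaling these counts were 24 and 14, 17 and 12, and 23 and 9. Of all 12839 genes, TMM called 3852 and 3609, 3324 and 3075, and 2629 and 2521. Some of these genes passed the filter on low levels only through the genotype in which they were high. Examples are Bmp7 and Tgfbi in Ebf1-/- cells, Bmp8a and Smad1 in Pax5-/- cells and Rgmb in wild-type cells. That they were tested at all presupposes their high level there, so their calls are a description and no separate support. Counts over the lists, which hold these genes, are likewise a description beside the shares of all genes. Adjusted p-values below are limma's over 12839 genes, and differences are log2 values less the median of all genes. The SE and adjusted p-values belong to the difference before that median was taken off. Rises and falls are over wild type.

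Among 6 other receptors and co-receptors tested, 3 rose and 3 fell in each mutant over wild type, with a median difference of -1.13 in Ebf1-/- cells (-1.26 with Rgmb at its bound) and -0.53 in Pax5-/- cells. Acvr2a, a type II receptor for activins and BMPs, averaged 63.7 ± 12.3 in Ebf1-/- cells, 101 ± 13.7 in Pax5-/- cells and 482 ± 69.9 in wild-type cells (SD, n = 3 each), and fell by 3.21 ± 0.18 in Ebf1-/- and by 2.52 ± 0.18 in Pax5-/- cells (log2 ± SE, adjusted p = 1.7e-09 and 5.7e-08). Endoglin, a co-receptor encoded by Eng, averaged 2.67 ± 1.14 in Ebf1-/- cells, 4.11 ± 1.84 in Pax5-/- cells and 67.1 ± 20.53 in wild-type cells and fell in both mutants (adjusted p = 3.1e-08 and 1.8e-07). Neuropilin 1, encoded by Nrp1 and able to bind TGF-β, averaged 83.5 ± 13.03 in Ebf1-/- cells, 6.19 ± 3.22 in Pax5-/- cells and 1.18 ± 0.502 in wild-type cells and rose in both mutants (adjusted p = 5.9e-10 and 3.3e-04). Rgmb, a BMP co-receptor, fell in Pax5-/- cells (adjusted p = 1.5e-04) and had 0 reads in Ebf1-/- cells against 78 in wild-type cells, at least 24.9-fold lower, with a floor of 3 reads over the group.

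Of 9 ligands tested, 3 rose and 1 fell in Ebf1-/- cells and 4 rose and 0 fell in Pax5-/- cells (3 and 3, and 3 and 0, with TMM), with median differences of 0.17 and 0.01. Bmp7 was detected at 192, 236 and 261 in Ebf1-/- cells, 0, 0 and 0.112 in Pax5-/- cells and 0, 0.352 and 0.159 in wild-type cells. Bmp7 passed the filter only through Ebf1-/- cells, so no p-value is given. Those cells held 2856 reads against 2 in wild-type cells, a ratio of 1492 with a counting interval of 413 to 12327. Bmp8a had 1.10, 1.83 and 2.59 in Ebf1-/- cells, 56.7, 38.7 and 54.9 in Pax5-/- cells and 0, 0 and 0.476 in wild-type cells. It passed the filter only through Pax5-/- cells, whose ratio to wild type was 220.3 (counting interval 75.1 to 1071). Tgfb2 averaged 2.08 ± 0.569 in Ebf1-/- cells, 62.2 ± 4.11 in Pax5-/- cells and 7.34 ± 2.16 in wild-type cells, so that it fell in Ebf1-/- and rose in Pax5-/- cells (adjusted p = 1.3e-04 and 7.3e-08). Tgfb3 averaged 46.4 ± 4.12 in Ebf1-/- cells, 19.1 ± 4.95 in Pax5-/- cells and 1.92 ± 0.487 in wild-type cells and rose in both (adjusted p = 8.3e-10 and 1.1e-07).

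Latent TGF-β must be released before it can bind its receptors. Of 6 genes of latency and activation, 4 rose and 1 fell in each mutant (2 and 1 in Ebf1-/- and 2 and 2 in Pax5-/- cells with TMM). Furin, a protease that cleaves the precursor, averaged 149.9 ± 19.4 in Ebf1-/- cells, 56.8 ± 2.84 in Pax5-/- cells and 18.3 ± 2.79 in wild-type cells and rose in both mutants (adjusted p = 1.6e-09 and 3.3e-06). Ltbp4, a latent TGF-β binding protein, averaged 25.8 ± 3.70 in Ebf1-/- cells, 30.9 ± 4.65 in Pax5-/- cells and 155 ± 18.6 in wild-type cells and fell in both (adjusted p = 1.9e-08 and 9.8e-08). Lrrc32, which encodes the cell surface anchor GARP, averaged 97.7 ± 7.56 in Ebf1-/- cells, 29.3 ± 13.7 in Pax5-/- cells and 36.999 ± 11.2 in wild-type cells, rose in Ebf1-/- cells (adjusted p = 0.001) and did not pass the test in Pax5-/- cells (0.31). Nrros, another anchor of latent TGF-β, averaged 1426 ± 379.5 in Ebf1-/- cells, 1433 ± 307 in Pax5-/- cells and 903 ± 163 in wild-type cells and passed the test in both mutants (adjusted p = 0.018 and 0.018), the call in Ebf1-/- cells being lost with TMM (0.095) or without the libraries numbered 2 (0.12), and that in Pax5-/- cells without wild-type library 1 (0.093), Pax5-/- library 3 (0.075) or the libraries numbered 2 (0.088).

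Of 4 extracellular inhibitors tested, 3 rose and 0 fell in each mutant, with median differences of 1.54 in Ebf1-/- and 0.46 in Pax5-/- cells. Fstl3, which binds activins, averaged 67.5 ± 10.5 in Ebf1-/- cells, 72.5 ± 10.8 in Pax5-/- cells and 6.15 ± 2.47 in wild-type cells and rose in both (adjusted p = 3.0e-08 and 3.3e-08). Twsg1, a BMP-binding protein, averaged 2103 ± 177 in Ebf1-/- cells, 1333 ± 117 in Pax5-/- cells and 864 ± 82.2 in wild-type cells and rose in both (adjusted p = 7.3e-07 and 0.0013), the call in Pax5-/- cells being lost without the libraries numbered 2 (0.058). Dand5, an antagonist of Nodal and BMPs, averaged 32.2 ± 5.29 in Ebf1-/- cells, 10.4 ± 2.96 in Pax5-/- cells and 5.28 ± 1.07 in wild-type cells and rose in both (adjusted p = 8.7e-07 and 0.013), although its call in Pax5-/- cells was lost without wild-type library 1 (0.058), Pax5-/- library 2 (0.050), Pax5-/- library 3 (0.052) or the libraries numbered 2 (0.13), and with quantile scaling (0.19) or DESeq2 (0.054).

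**Figure D4:**
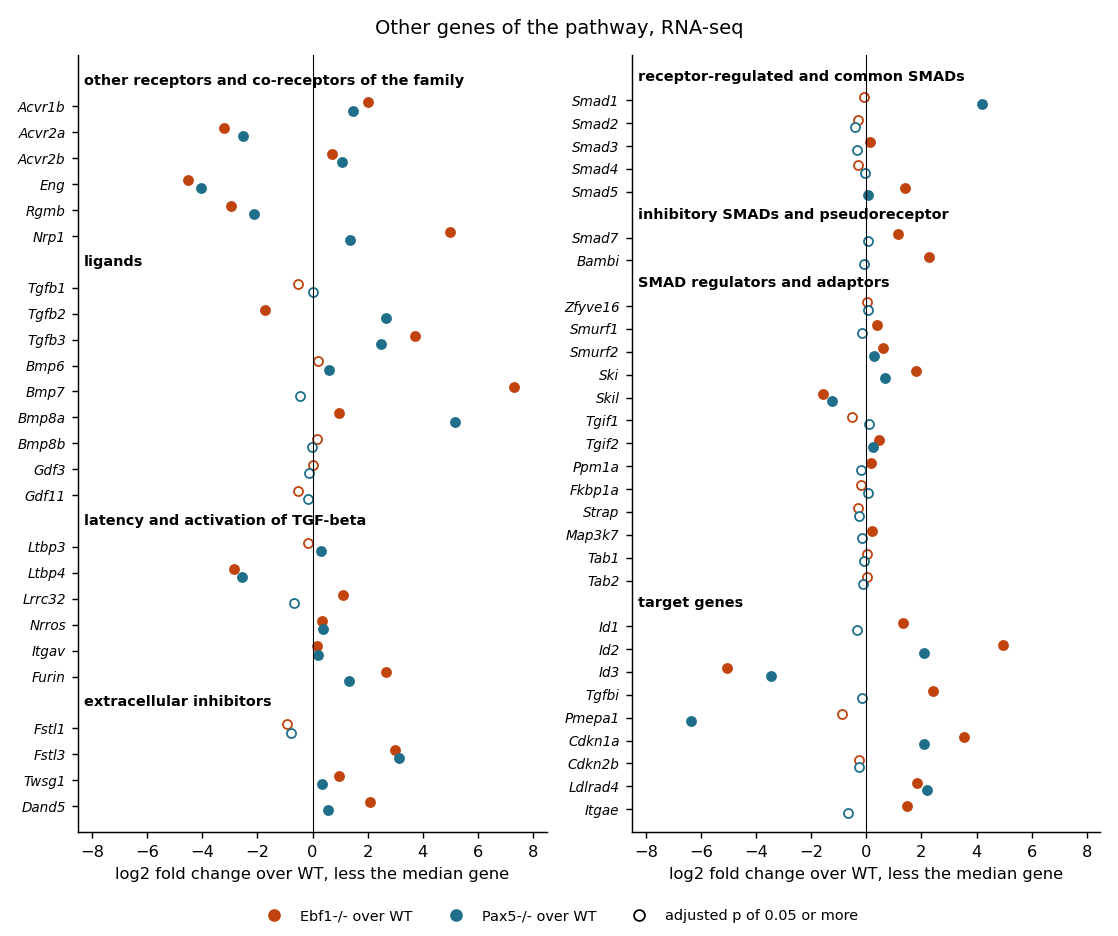
Log2 differences of the tested pathway genes, less the median of all genes, by list, for Ebf1-/- and Pax5-/- over wild type. Filled points passed the test and open points did not. The inhibitor list lies mostly above 0, with medians of 1.54 and 0.46 over wild type.

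Of the 5 receptor-regulated and common SMADs tested, 2 rose and 0 fell in each mutant, and 1 rose and 2 fell in each with TMM. Smad1, a signal carrier of the BMP branch, had 0.275, 0.366 and 0.345 in Ebf1-/- cells, 23.6, 27.9 and 21.3 in Pax5-/- cells and 0, 0 and 0.476 in wild-type cells. Smad1 passed the filter only through Pax5-/- cells, so no p-value is given. Those cells held 361 reads against 3 in wild-type cells, a ratio of 98.2 with a counting interval of 33.3 to 478. Smad5, of the same branch, averaged 1709 ± 131 in Ebf1-/- cells, 654 ± 43.7 in Pax5-/- cells and 518 ± 48.6 in wild-type cells and rose in Ebf1-/- cells (adjusted p = 1.8e-08), whereas its call in Pax5-/- cells (adjusted p = 0.044) was lost with TMM (0.50), without Pax5-/- library 2 (0.11) or 3 (0.10), without wild-type library 1 (0.12) or 2 (0.093), and without any 1 Ebf1-/- library (0.053 to 0.064). Smad3, of the TGF-β branch, averaged 596 ± 36.5 in Ebf1-/- cells, 423 ± 62.5 in Pax5-/- cells and 443 ± 40.6 in wild-type cells and rose in Ebf1-/- cells with the authors' scaling (adjusted p = 0.018) but not with TMM (0.23), without Ebf1-/- library 3 (0.073) or without wild-type library 1 (0.060).

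Both tested genes among the inhibitory SMADs and the pseudoreceptor rose in Ebf1-/- over wild-type cells and over Pax5-/- cells, and neither passed the test in Pax5-/- over wild-type cells without a block. With the replicate number as a block, Smad7 passed in Pax5-/- over wild-type cells (limma's adjusted p = 0.031, beside 0.11 without it). Bambi, a pseudoreceptor that lacks the kinase domain, averaged 36.2 ± 3.64 in Ebf1-/- cells, 6.16 ± 0.436 in Pax5-/- cells and 5.26 ± 0.977 in wild-type cells, and the difference of Ebf1-/- over wild type was 2.27 ± 0.21 (adjusted p = 5.8e-08). Smad7, which blocks type I receptors, averaged 151 ± 7.51 in Ebf1-/- cells, 69.8 ± 6.30 in Pax5-/- cells and 55.3 ± 7.98 in wild-type cells, and the difference of Ebf1-/- over wild type was 1.14 ± 0.17 (adjusted p = 2.4e-06). Of 13 regulators of SMADs, 6 rose and 1 fell in Ebf1-/- and 3 rose and 1 fell in Pax5-/- cells, where the fit with the replicate number as a block gave 9 and 1 and 6 and 1, and TMM 4 and 3 and 2 and 2. Ski, a co-repressor of SMADs, averaged 270.4 ± 26.7 in Ebf1-/- cells, 122 ± 27.3 in Pax5-/- cells and 61.6 ± 3.20 in wild-type cells and rose in both (adjusted p = 4.9e-08 and 3.5e-04). Its relative Skil averaged 162 ± 18.1 in Ebf1-/- cells, 203 ± 52.5 in Pax5-/- cells and 402 ± 109 in wild-type cells and fell in both (adjusted p = 1.9e-04 and 0.0023). Smurf2, a ubiquitin ligase for receptors and SMADs, averaged 1229 ± 27.1 in Ebf1-/- cells, 947 ± 60.8 in Pax5-/- cells and 649 ± 69.2 in wild-type cells and rose in both (adjusted p = 1.6e-05 and 0.0025).

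Of 9 genes known as targets of these pathways, 6 rose and 1 fell in Ebf1-/- cells and 3 rose and 2 fell in Pax5-/- cells over wild type (6 and 2, and 3 and 3, with TMM), with median differences of 1.49 and -0.26. Id2 and Id3, which encode inhibitors of E proteins and are BMP targets in many cells, went in opposite directions in Ebf1-/- cells. Id2 averaged 284 ± 70.8 in Ebf1-/- cells, 38.9 ± 16.97 in Pax5-/- cells and 6.21 ± 0.871 in wild-type cells, rising in both mutants (adjusted p = 8.4e-10 and 1.3e-05). Id3 averaged 4.14 ± 1.45 in Ebf1-/- cells, 14.2 ± 3.54 in Pax5-/- cells and 135 ± 7.73 in wild-type cells, falling in both mutants (adjusted p = 2.8e-10 and 5.1e-08). Cdkn1a, the cell cycle inhibitor p21, had 3774, 1815 and 1833 in Ebf1-/- cells, 703, 795 and 1039 in Pax5-/- cells and 154, 171 and 157 in wild-type cells, and rose in both mutants (adjusted p = 1.6e-09 and 7.0e-07). Pmepa1 and Ldlrad4, related genes whose products restrain TGF-β signalling, differed from each other in Pax5-/- cells. Pmepa1 had 126, 49.1 and 52.2 in Ebf1-/- cells, 0.285, 0.951 and 0.449 in Pax5-/- cells and 77.7, 119 and 122 in wild-type cells. It fell in Pax5-/- cells (adjusted p = 5.8e-10) and did not pass the test in Ebf1-/- cells (0.14). Ldlrad4 had 149, 108 and 118 in Ebf1-/- cells, 162, 154 and 153 in Pax5-/- cells and 37.6, 21.1 and 25.1 in wild-type cells, and rose in both mutants (adjusted p = 3.4e-07 and 9.7e-08).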

How the data were processed

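RNA and ATAC libraries of the 3 genotypes were grouped by their titles. Per the labels' protocols, RNA libraries were made with a NuGEN Ovation Ultralow kit and read singly for 76 cycles, and ATAC libraries with Nextera transposase. The submitters' processing notes name TopHat, HOMER, edgeR and DESeq2 for RNA and Bowtie2 and HOMER for ATAC on mm10 (GRCm38), with no versions. Per the file headers, the deposited signal in the gene table is reads over exons with 1 transcript kept per gene, scaled by the authors to 10 M, and that in the region tables is tags per region, scaled to 10 M. The authors' deposited tables also hold a peak score, other annotation such as distances and lengths, log2 fold changes and adjusted p-values, the last not used for any call here. All values were whole reads within 0.1 read once divided by the estimated value of 1 read.

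The receptors and gene lists were chosen with earlier results of these data known. One limma model over the 9 libraries of an assay (trend, log2 of value + 1, no block) tested 12839 genes that passed edgeR's filterByExpr and 14365 regions with at least 10 reads. p-values are two-sided and Benjamini-Hochberg adjusted. The plan named edgeR for counts; the files hold normalized values, so limma became the main test and edgeR and DESeq2 on recovered reads were alternatives, with TMM and quantile scaling, pseudocounts of 0.5 and 5, no filter, fits of the 2 groups compared, the replicate block, each library left out and the 3 libraries numbered 2 left out. Genes named from the lists were the called genes with the largest changes per list and comparison with wild type, up to 3, among those with a mean of at least 5 in a group compared. Regions given with values were those annotated to a receptor and called in any comparison by the main test. Added to them were that 209 kb upstream of Tgfbr2, called only under other methods, and that nearest to the start of Tgfbr1. Genes alike were the 2 of highest Pearson's r per receptor with a mean of at least 50 in the highest genotype. Counting intervals are 95% and cover counting error only. Residuals of same-numbered RNA libraries correlated at 0.116 to 0.440 for all 9 pairs of different genotypes, so RNA libraries count as paired by number; the block is an alternative fit. Pooled profiles and lists of ChIP peaks near changed genes were not used here. Statistics used limma 3.58.1, DESeq2 1.42.0 and edgeR 4.0.16 in R 4.3.3, and sequences pysam 0.24.0 in Python 3.11.15 with SciPy 1.17.1, NumPy 2.4.6 and pandas 2.3.3. Motifs were searched in 14372 regions, with 5 not scanned.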

Additional observations from a re-analysis of the deposited data

How the results depend on the processing

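For the 6 receptors, 324 of 342 values under the alternatives moved by less than the spread between libraries and 18 by more. With the replicate block, 8783, 8073 and 5622 genes were called for Ebf1-/- over wild type, Pax5-/- over wild type and Ebf1-/- over Pax5-/-, beside 7095, 5976 and 3962 without it, all within 1.5 times. Without the libraries numbered 2, the counts for Pax5-/- over wild type and Ebf1-/- over Pax5-/- were 3593 and 2634. Leaving out 1 library gave 6077 to 7635, 4872 to 6380 and 3353 to 4226 genes. For ATAC, Pax5-/- over wild type gave 7708 regions, 4997 with TMM and 3915 with DESeq2, and leaving out 1 library gave 7112 to 8115, 6507 to 8235 and 2164 to 3614 in the same order of comparisons. Same-numbered ATAC libraries did not deviate together (r of -0.052 to 0.110, 1 of 9 above 0.1), and the replicate block gave 7818, 7696 and 3136 regions.

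Several region values, here log2 fold changes without the median taken off and with distances from the gene start, changed sign. Those called with or without the alternative went above 0. In Ebf1-/- over wild type, the Tgfbr2 region 240.6 kb upstream reached 1.05 with quantile scaling, that 191 kb upstream 0.78 with DESeq2 and 0.72 with TMM and edgeR, that 163 kb upstream 0.0076 with DESeq2, that 1.7 kb downstream 0.09 and that 91.3 kb downstream 0.83 with quantile scaling, and the Tgfbr3 region 8.0 kb downstream 0.12 with quantile scaling. In Pax5-/- over wild type, the Tgfbr2 region 149 kb upstream was at 0.17 with DESeq2, 0.11 with TMM, 0.18 with edgeR and 0.23 with quantile scaling, and those 209 kb upstream, 31.5 kb downstream and 97.9 kb downstream at 0.56, 0.0196 and 0.0115 with quantile scaling. The 38 others that changed sign were called in neither fit. In Ebf1-/- over wild type they reached 0.89 with DESeq2, 0.60 with TMM and 0.82 with edgeR at the Tgfbr2 region 240.6 kb upstream, 0.49, 0.42 and 0.40 (0.61 with quantile scaling) at that 0.5 kb from the start, 0.47, 0.35 and 0.39 at that 91.3 kb downstream, 0.36 with quantile scaling at that 191 kb upstream, and 0.11 with DESeq2, 0.13 with TMM and 0.54 with quantile scaling at the Tgfbr3 region 112.7 kb downstream. The Tgfbr2 region 209 kb upstream was at -0.0025 with a pseudocount of 5 and -0.41 without the libraries numbered 2. In Pax5-/- over wild type, DESeq2, TMM and edgeR gave 0.38, 0.39 and 0.39 at the Tgfbr2 region 209 kb upstream and 0.35, 0.31 and 0.33 (0.49 with quantile scaling) at that 91.3 kb downstream. In Ebf1-/- over Pax5-/-, quantile scaling gave 0.15 at the Tgfbr2 region 166.8 kb upstream and 0.12 at that 1.7 kb downstream, and leaving out the libraries numbered 2 gave -0.024 at that 91.3 kb downstream and -0.015 at the Tgfbr3 region 14.1 kb upstream. Leaving out 1 library gave ranges across 0 in Ebf1-/- over wild type at the Tgfbr2 regions 240.6 kb (-0.38 to 0.084), 209 kb (-0.37 to 0.32) and 191 kb upstream (-0.47 to 0.041). It did so in Ebf1-/- over Pax5-/- at the EBF1-only Acvr1 region (-0.0071 to 0.86) and the Tgfbr2 regions 166.8 kb upstream (-0.37 to 0.011), 1.7 kb (-0.36 to 0.15) and 91.3 kb downstream (-0.098 to 0.18). The cause was not tested. Of 1140 values of regions, 991 kept direction and call, 53 changed sign, 74 lost the call and 22 gained one. The choice of pathway genes to name rested on 42 calls, not including that of Nrros in Ebf1-/- cells. Of these 42, 36 held under all 19 alternatives. The 6 others, all named in the report, were Smad3 in Ebf1-/- and Smad5, Nrros, Dand5, Twsg1 and Smurf2 in Pax5-/- cells, where Smurf2 was at an adjusted p of 0.093 without the libraries numbered 2. Levels of a few reads, as for Acvr1 in Ebf1-/- cells, limit the precision of their ratios.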
